A study of Nicotiana tabacum with 9 samples.

Results

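One-carbon and methyl-cycle genes were followed in tobacco (Nicotiana tabacum) leaf RNA. A gene belonged to the set when its deposited protein-domain description named serine hydroxymethyltransferase, formyltetrahydrofolate, methylenetetrahydrofolate, tetrahydrofolate dehydrogenase, glycine cleavage, methionine synthase, S-adenosylmethionine synthetase or adenosylhomocysteinase, and did not name thymidylate synthase. This gave 101 of the 69500 genes of the table. Membership followed from the descriptions alone, but the set was chosen with earlier results of these data known. Leaf RNA was sequenced from 3 plant materials with 3 libraries each, labelled by genotype as KY, Y and K326. K326 is a flue-cured tobacco cultivar. The labels give no age, treatment or growth condition, do not say what KY and Y are or how they relate to K326, and do not say whether replicates came from separate plants. A p-value therefore measures how far these libraries spread, which may be technical.

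Tetrahydrofolate carries single carbon units at different oxidation states. Serine hydroxymethyltransferase and the glycine cleavage system load carbon from serine and glycine onto it, and in leaves both act together in photorespiration, the salvage of a by-product of carbon fixation. Other folate enzymes interconvert the carbon units, which go to purines, thymidylate or, through methylenetetrahydrofolate reductase, to methionine. In the methyl cycle, methionine synthase makes methionine from homocysteine, S-adenosylmethionine synthetase activates it as the general methyl donor, and adenosylhomocysteinase clears the product left after each methyl transfer.

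The deposited values are called the signal here, since the table names no unit. The summed signal ranged from 551496 to 603165 per library, and read depth is unknown. KY replicate 1 stood apart from its material, with Pearson r of 0.8994 and 0.9395 to the other KY libraries across tested genes, which are not independent replicates. It correlated best with K326 replicate 3 (r = 0.954). K326 replicate 3 also correlated best with KY replicate 1, slightly above its r with the other K326 libraries (0.9469 and 0.9519). For some of the results, values without either library are also given. All other counts and sums include both libraries, and their dependence on them is not shown. Leaf mesophyll markers (90 genes) summed to between 89092 and 129504 in every library, 200 of the 411 flower and pollen markers were listed at 0 throughout, and the 3 root marker genes were listed at 0 except for 1 gene at 0.05 in KY replicate 1.

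Of the 101 genes, 45 had a mean signal of at least 1 over the 9 libraries and were tested, 34 were above 0 somewhere but below that mean, and 22 were listed at 0 in all 9 libraries. The set held 19 serine hydroxymethyltransferase genes (10 tested), 17 glycine cleavage genes of the P, H and T proteins (12 tested), 11 methylenetetrahydrofolate dehydrogenase/cyclohydrolase genes (6 tested), 5 formyltetrahydrofolate deformylase genes (2 tested) and 9 genes for 5-formyltetrahydrofolate cyclo-ligase (3 tested). It further held 5 methylenetetrahydrofolate reductase genes (1 tested), 15 methionine synthase genes (4 tested), 14 S-adenosylmethionine synthetase genes (4 tested) and 4 adenosylhomocysteinase genes (3 tested). A pair of genes described as MnmE, a tRNA-modifying GTPase whose folate-binding domain resembles the T-protein, was also matched and was not tested. The descriptions of 9 members name another domain as well, such as the WD40 repeat in 3 of the tested serine hydroxymethyltransferase genes, so these may encode other proteins. On 7 scaffolds 2 or more members lay together. Tobacco is an allotetraploid with near-identical gene copies, so a single copy's value depends on how reads were divided among copies. The sum over an enzyme's genes is free of the division among those genes only if the signal adds up as reads do. The sources do not state this. The signal is not stated to be per transcript length, so "highest" for a gene refers to its deposited value and ranks no expression levels between genes.

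Across the set, most transcripts did not separate the materials beyond the spread between libraries. With limma on log2(signal + 1) and Benjamini-Hochberg adjustment over all 16348 tested genes, 1 member passed an adjusted p below 0.05, methylenetetrahydrofolate reductase, which was higher in Y than in K326. In KY against K326, 0 of 45 members were called, against 0.789% of all tested genes (0.232% higher and 0.557% lower). In Y against K326, 1 of 45 (2.22%) was called, against 1.99% of all tested genes (0.777% higher and 1.21% lower), so that the share of members was near the background. In KY against Y, 0 of 45 were called, against 1.3% (0.483% higher and 0.814% lower).

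At an unadjusted p below 0.05, the share of members exceeded that of all tested genes most for those higher in KY than in Y. The cause was not tested. In KY against K326, 1 member was higher and 3 were lower (2.22% and 6.67% of members, against 2.28% and 9.13% of all tested genes). In Y against K326, 1 was higher and 5 were lower (2.22% and 11.1%, against 4.32% and 8.18%). In KY against Y, 6 were higher and 6 lower (13.3% each, against 4.24% and 8.96%). The 6 higher ones were 2 serine hydroxymethyltransferase, 2 methionine synthase and 2 S-adenosylmethionine synthetase genes. Among them, Nitab4.5_0006354g0020 and Nitab4.5_0000098g0100 had values of 0.66 and 0.82 in Y replicate 2 and a wide spread within Y. By libraries that did not overlap, the share of members higher in KY than in Y was 4.44%, against 5.39% of all tested genes.

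Members were also counted when the libraries of 2 materials did not overlap. In KY against K326, 3 members lay wholly above and 6 wholly below K326 (background 3.21% and 12.4%, members 6.67% and 13.3%). In Y against K326, 5 lay above and 8 below (background 7.41% and 14.7%, members 11.1% and 17.8%). In KY against Y, 2 lay above and 6 below (background 5.39% and 11.2%, members 4.44% and 13.3%).

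The median log2 difference of the 45 members was -0.04 in KY against K326, where the median of all tested genes was -0.14, and 21 of 45 members were above 0, against 30.5% of all tested genes. With median-of-ratios scaling the 2 medians were 0.12 and -0.002, so the members' median changed sign with the scaling. In Y against K326 it was -0.16, against -0.08 for all tested genes, with 17 members above 0 (background 40.0%). In KY against Y it was 0.04, against -0.05, with 28 members above 0 (background 43.8%). KY and Y were compared with the same K326 libraries, so their differences from K326 are not independent of each other. Leaf mesophyll markers, antenna and Rubisco small-subunit genes, had a median of 0.36 in KY against K326, with 3 of 68 tested called higher and 26 higher and 0 lower at an unadjusted p below 0.05. Their median was 0.24 in Y against K326, with 1 called higher and 13 higher and 1 lower at that threshold. Over all tested genes, the unadjusted shares were 2.28% higher and 9.13% lower in KY against K326, and 4.32% and 8.18% in Y against K326. The part of the mesophyll markers in the members' differences was not tested.

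**Figure D1:**
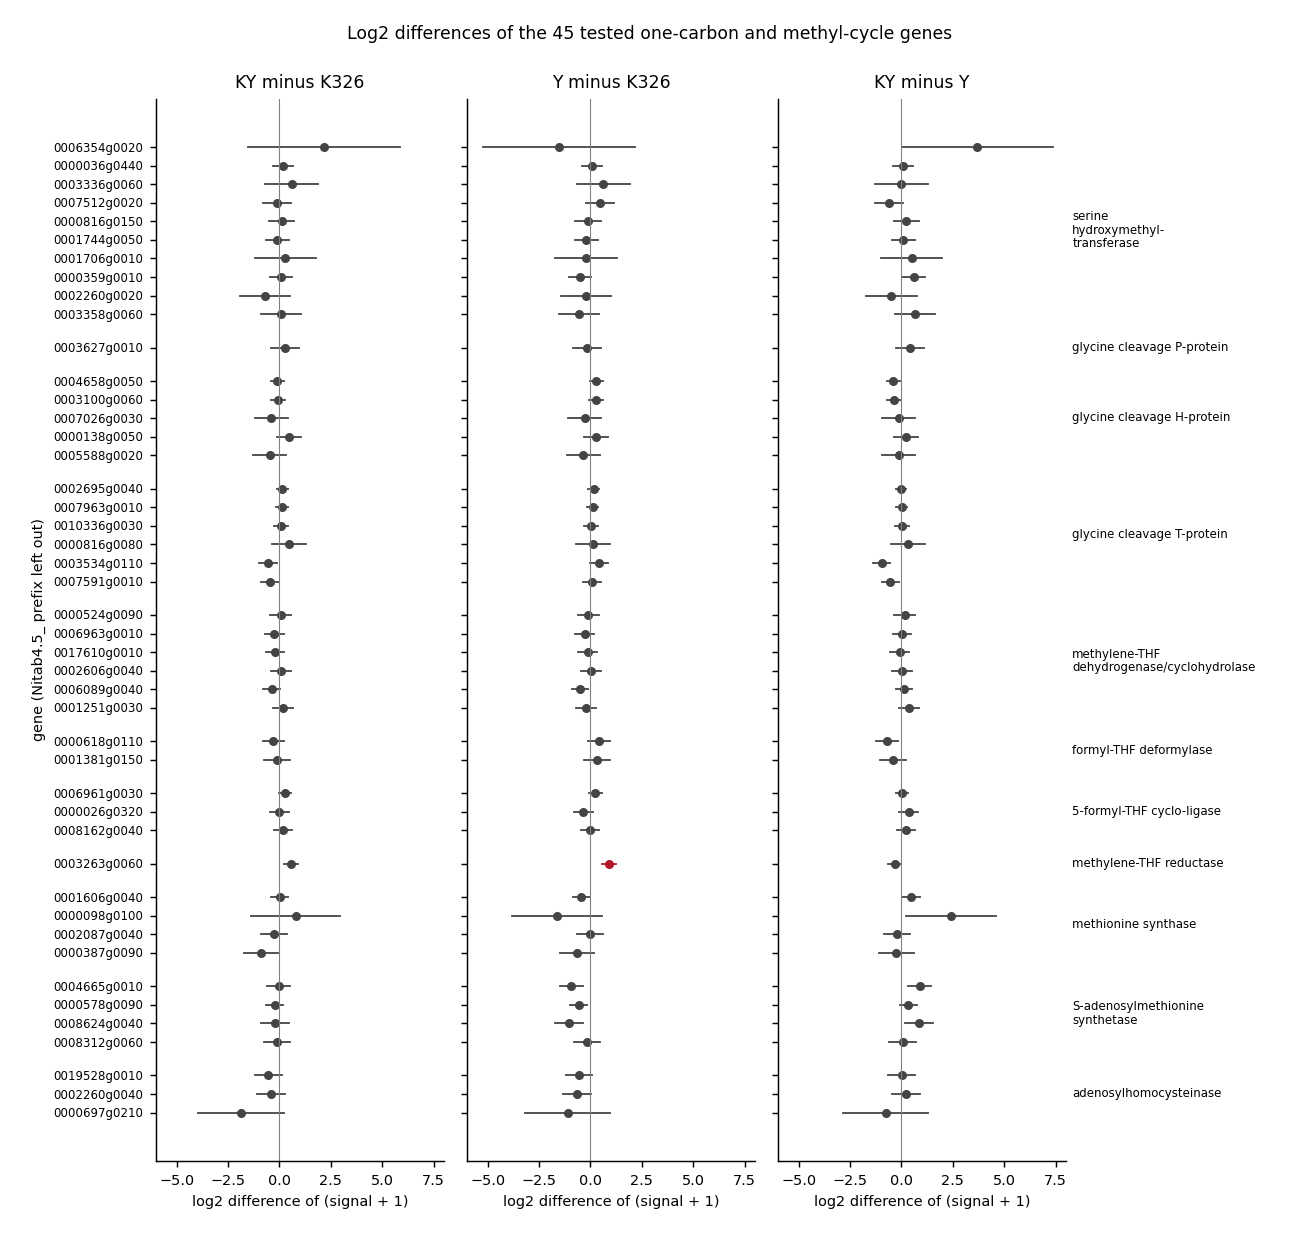
Log2 difference of (signal + 1) for each of the 45 tested genes, grouped by enzyme, in KY minus K326, Y minus K326 and KY minus Y; points are estimates, lines are 95% intervals from the limma fit, and red marks an adjusted p below 0.05. The 1 red point is the methylenetetrahydrofolate reductase gene in Y minus K326 (0.89), and the widest lines belong to a serine hydroxymethyltransferase gene (Nitab4.5_0006354g0020).

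Methylenetetrahydrofolate reductase reduces methylene-tetrahydrofolate to the methyl form that methionine synthase uses. Its 1 tested gene, Nitab4.5_0003263g0060, had a signal of 17.0, 13.59 and 14.56 in the KY libraries, 17.74, 19.87 and 20.07 in the Y libraries, and 9.28, 10.94 and 9.48 in the K326 libraries. All 3 Y libraries lay above all 3 KY libraries, which in turn lay above all 3 K326 libraries. The means were 15.1 ± 1.76 in KY, 19.2 ± 1.29 in Y and 9.90 ± 0.91 in K326 (SD, n = 3 each).

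The Y level was higher than the K326 level by 0.89 on the log2(signal + 1) scale (SE 0.15, 95% interval 0.56 to 1.23, limma adjusted p = 0.0167). The KY difference from K326 was 0.56 (SE 0.15, limma adjusted p = 0.197) and that of KY from Y was -0.34 (SE 0.15, limma adjusted p = 0.375), neither of which passed. The Y call did not hold in 7 of 20 alternative settings, including those that left out any 1 Y library, K326 replicate 1 or K326 replicate 3 (limma adjusted p from 0.0537 to 0.0898 without 1 of them), while the difference over all 20 lay between 0.70 and 0.99. Without both KY replicate 1 and K326 replicate 3 it was 0.87 (limma adjusted p = 0.0518). Of the other 4 reductase genes, 3 were listed at 0 in all 9 libraries and Nitab4.5_0006595g0030 had values of 0.23, 0.33 and 0.30 in KY, 0, 0.03 and 0.03 in Y, and 0.20, 0.10 and 0.15 in K326. The tested gene therefore held 99.0% of the summed signal of this enzyme.

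**Figure D2:**
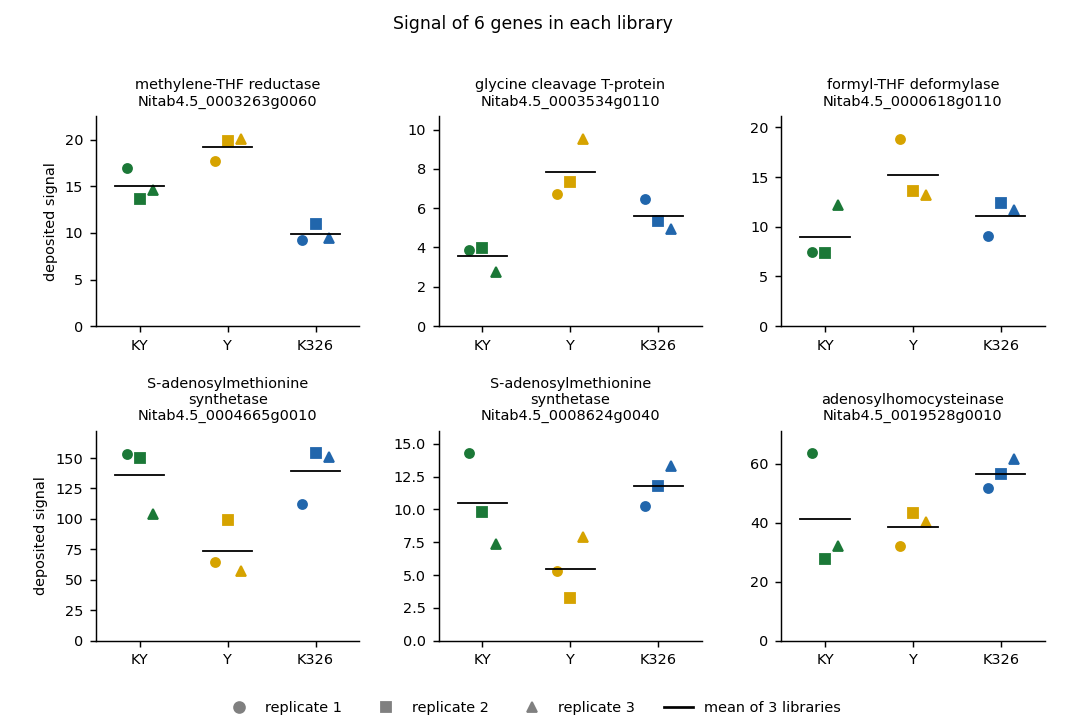
Deposited signal of 6 genes in each of the 9 libraries, with marker shapes for replicates and a black line for the mean of the 3 libraries of KY, Y and K326. The reductase gene (Nitab4.5_0003263g0060) separates all 3 materials, with Y between 17.74 and 20.07 and K326 between 9.28 and 10.94, while KY replicate 1 stands at 63.58 for adenosylhomocysteinase (Nitab4.5_0019528g0010), above the other KY libraries at 27.79 and 32.18.

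Serine hydroxymethyltransferase moves a carbon from serine to tetrahydrofolate, or back from a pair of glycines in photorespiration. The summed signal of its 19 genes was 578.61, 916.54 and 857.1 in KY, 354.61, 272.8 and 757.33 in Y, and 327.67, 331.54 and 528.73 in K326. All KY sums lay above all K326 sums, while the Y sums overlapped both. Most of this order came from 1 gene.

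That gene, Nitab4.5_0006354g0020, had values of 372.26, 432.36 and 521.8 in KY, 60.23, 0.66 and 380.65 in Y, and 66.98, 52.02 and 258.75 in K326. The KY libraries did not overlap with K326, and within Y the highest value was 577 times the lowest. Its log2 difference was 2.17 in KY against K326 (SE 1.62, limma adjusted p = 0.644), -1.53 in Y against K326 (limma adjusted p = 0.740) and 3.70 in KY against Y (limma adjusted p = 0.376), so the spread between libraries was too large for any call. Without Y replicate 2 the difference of Y from K326 was 0.64, the opposite sign. Without this gene the enzyme's summed signal was 206.35, 484.18 and 335.3 in KY, 294.38, 272.14 and 376.68 in Y, and 260.69, 279.52 and 269.98 in K326, and the 3 materials overlapped.

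**Figure D3:**
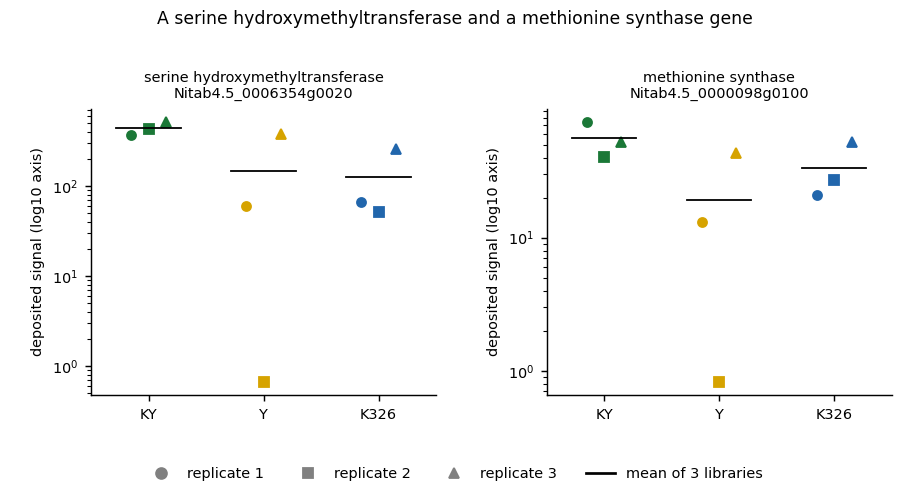
Deposited signal on a log10 axis for a serine hydroxymethyltransferase gene (Nitab4.5_0006354g0020) and a methionine synthase gene (Nitab4.5_0000098g0100) in each library of KY, Y and K326; the black line is the mean of 3 libraries. Both genes lie below 1 in Y replicate 2, at 0.66 and 0.82, and the other libraries of Y lie at 13.22 or above.

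The other 9 tested genes of this enzyme showed smaller differences and 0 were called. Nitab4.5_0000036g0440 lay at 121.94, 219.84 and 176.71 in KY, 148.06, 146.63 and 190.79 in Y, and 141.4, 156.61 and 154.36 in K326, and its libraries overlapped in every comparison. Nitab4.5_0003336g0060 had 27.07, 156.63 and 101.48 in KY, 82.18, 48.74 and 111.65 in Y, and 42.67, 53.14 and 53.09 in K326. Its log2 differences from K326 were 0.61 in KY (limma adjusted p = 0.713) and 0.62 in Y (limma adjusted p = 0.696), and KY alone spanned 27.07 to 156.63. The KY difference was 1.34 without KY replicate 1 (limma adjusted p = 0.0688) and 0.09 without KY replicate 2 (limma adjusted p = 0.980). Nitab4.5_0007512g0020 had 11.08, 27.81 and 24.83 in KY, 30.39, 26.87 and 34.12 in Y, and 22.55, 22.95 and 19.86 in K326. Here Y lay wholly above K326, at a log2 difference of 0.46 that did not pass (limma adjusted p = 0.574). Nitab4.5_0002260g0020 had 1.39, 2.71 and 2.09 in KY, 3.03, 9.77 and 0.76 in Y, and 3.95, 4.44 and 3.32 in K326, with KY wholly below K326 (log2 difference -0.70, limma adjusted p = 0.656). It shares scaffold 0002260 with an adenosylhomocysteinase gene.

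The glycine cleavage system splits glycine in mitochondria: the P-protein releases carbon dioxide, the lipoyl-bearing H-protein passes the remainder on, and the T-protein hands its carbon to tetrahydrofolate. Within a material, the highest library of the T-protein gene Nitab4.5_0002695g0040 was at most 1.21 times the lowest, while the H-protein gene Nitab4.5_0005588g0020, with a much lower signal, spread 12.7 times within KY. By limma, 0 of the 12 tested cleavage genes were called. At an unadjusted p below 0.05, 2 T-protein-domain genes were lower in KY than in K326 (9.13% of all tested genes were). The same 2 and 2 H-protein genes were lower in KY than in Y (8.96% of all tested genes were). In Y against K326, 0 passed that threshold. Those 2 T-protein-domain genes, Nitab4.5_0003534g0110 and Nitab4.5_0007591g0010, have T-protein domains and a YgfZ/GcvT conserved site in their descriptions. The descriptions do not name the glycine cleavage system T protein itself, so these genes may encode other proteins. The YgfZ/GcvT site also occurs in other tested T-protein genes. Their descriptions name that protein only within a domain shared with the GTP-binding protein TrmE, so the same limit holds for them. The summed T-protein signal ranged from 1169.64 to 1300.2 in KY, from 1160.37 to 1274.09 in Y and from 1019.25 to 1238.12 in K326, so all 3 materials overlapped. Its highest gene, Nitab4.5_0002695g0040, averaged 642 ± 32.8 in KY, 652 ± 33.6 in Y and 587 ± 54.8 in K326 (SD, n = 3 each). Its 95% intervals were -0.13 to 0.39 for KY minus K326, -0.11 to 0.42 for Y minus K326 and -0.28 to 0.24 for KY minus Y.

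The summed H-protein signal was 723.78, 707.68 and 793.79 in KY, 1053.12, 1027.25 and 816.41 in Y, and 728.54, 800.74 and 852.17 in K326. KY lay wholly below Y, while K326 overlapped both. The 2 genes with the highest H-protein signal both had KY below Y. Nitab4.5_0004658g0050 had 335.07, 381.33 and 396.4 in KY, 530.67, 521.5 and 412.21 in Y, and 378.02, 414.86 and 408.06 in K326. The KY difference from Y was -0.39 (SE 0.14, limma adjusted p = 0.272), and that of Nitab4.5_0003100g0060 was -0.37 (SE 0.15, limma adjusted p = 0.354), neither of which passed.

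Among lower signals, a T-protein-domain gene, Nitab4.5_0003534g0110, came closest to a call in KY against Y. It had 3.88, 3.99 and 2.76 in KY, 6.74, 7.31 and 9.52 in Y, and 6.48, 5.37 and 4.92 in K326, and no 2 materials overlapped. The log2 difference of KY from Y was -0.96 (SE 0.19, limma adjusted p = 0.0506), which became a call with median-of-ratios scaling (-0.90, limma adjusted p = 0.0341) and with quantile normalization (-0.90, limma adjusted p = 0.0264) and in no other of the 20 alternatives. Its differences from K326 were -0.54 in KY (limma adjusted p = 0.337) and 0.42 in Y (limma adjusted p = 0.407). A second such gene, Nitab4.5_0007591g0010, had 1.58, 1.09 and 0.78 in KY, 2.07, 2.45 and 1.74 in Y, and 2.05, 1.76 and 2.00 in K326, with KY again wholly below Y (-0.53, limma adjusted p = 0.273). Only 2 genes were described as P-protein, and their summed signal stayed between 0.81 and 3.6 in all 9 libraries. A P-protein gene with another description would not be counted, so this sum may not cover the enzyme. The tested one, Nitab4.5_0003627g0010, had 2.39, 1.14 and 1.05 in KY, 1.63, 0.30 and 0.86 in Y, and 0.88, 1.34 and 1.01 in K326.

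The enzymes that interconvert the carbon units of tetrahydrofolate had 0 genes called by limma. At an unadjusted p below 0.05, 1 dehydrogenase gene was lower in Y than in K326 (8.18% of all tested genes were). By the same threshold 1 deformylase gene was lower in KY than in Y (8.96% of all tested genes were). Methylenetetrahydrofolate dehydrogenase/cyclohydrolase links the methylene and formyl forms, and its summed signal was 29.24, 23.79 and 24.48 in KY, 24.36, 23.52 and 25.03 in Y, and 30.11, 22.34 and 30.18 in K326. All 3 materials overlapped. Its highest gene, Nitab4.5_0000524g0090, averaged 7.06 ± 1.24 in KY, 6.16 ± 0.37 in Y and 6.89 ± 2.07 in K326 (SD, n = 3 each). Of the 6 tested genes, Nitab4.5_0006089g0040 had KY (2.00, 1.51 and 1.78) and Y (1.95, 1.54 and 1.14) wholly below K326 (2.39, 2.41 and 2.98). The log2 differences from K326 were -0.38 in KY (limma adjusted p = 0.473) and -0.51 in Y (limma adjusted p = 0.288).

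Formyltetrahydrofolate deformylase releases formate from formyl-tetrahydrofolate. Its summed signal was 8.93, 10.04 and 14.93 in KY, 23.41, 16.51 and 15.91 in Y, and 10.88, 15.05 and 15.32 in K326, with Y wholly above both other materials. The higher of its 2 tested genes, Nitab4.5_0000618g0110, had 7.42, 7.39 and 12.23 in KY, 18.83, 13.57 and 13.21 in Y, and 9.07, 12.37 and 11.65 in K326. Y lay wholly above the other 2 materials. The KY difference from Y was -0.71 (SE 0.23, limma adjusted p = 0.231), and the Y difference from K326 was 0.42 (SE 0.23, limma adjusted p = 0.499).

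The cyclo-ligase returns 5-formyl-tetrahydrofolate, a storage form, to the active pool. Its summed signal was 28.35, 24.06 and 25.47 in KY, 24.13, 24.53 and 23.57 in Y, and 20.95, 20.97 and 22.54 in K326, and both KY and Y lay wholly above K326. Its highest gene, Nitab4.5_0006961g0030, showed the same order, with 21.76, 19.48 and 21.74 in KY, 20.97, 19.86 and 20.31 in Y, and 16.8, 16.2 and 18.17 in K326. The differences from K326 were small: 0.28 in KY (95% interval -0.01 to 0.58, limma adjusted p = 0.456) and 0.24 in Y (95% interval -0.05 to 0.54, limma adjusted p = 0.484).

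**Figure D4:**
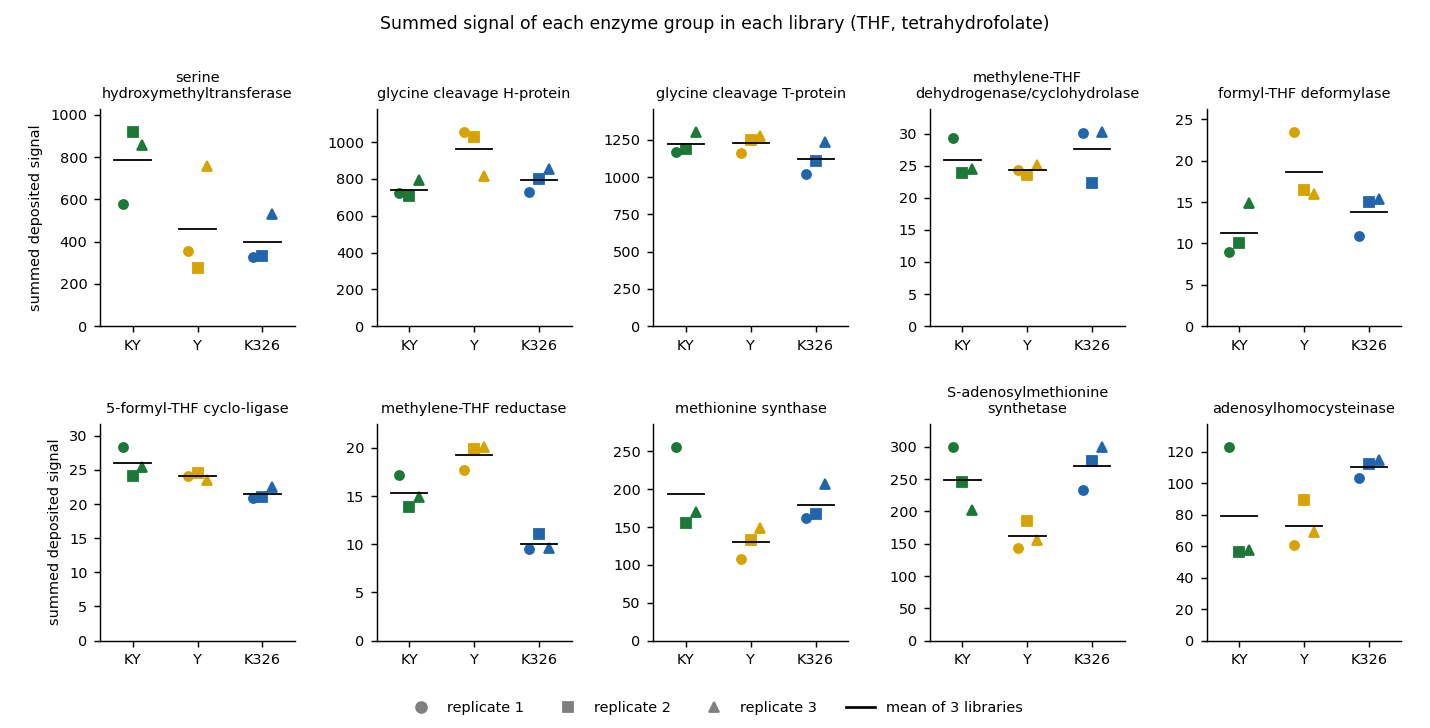
Summed deposited signal of 10 enzyme groups in each library of KY, Y and K326; each axis starts at 0, marker shapes are replicates and the black line is the mean of 3 libraries. The T-protein sums overlap in all 3 materials, and the S-adenosylmethionine synthetase sums of Y (142.82 to 184.5) lie below those of KY (202.37 to 299.65) and of K326 (233.59 to 298.83).

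The 3 enzymes of the methyl cycle, grouped with their values known, stood lower in Y than in K326 in summed signal. The 33 methyl-cycle genes together had 678.56, 456.88 and 430.5 in KY, 311.59, 406.26 and 373.37 in Y, and 499.09, 558.63 and 620.86 in K326. Y lay wholly below K326 and wholly below KY, and KY overlapped K326. In Y against K326, all 11 tested methyl-cycle genes had a log2 difference below 0, with a median of -0.64 against -0.08 for all tested genes, and 6 of the 11 lay wholly below K326. At an unadjusted p below 0.05, 4 of the 11 were lower, and 0 were called by limma. Over all tested genes 40.0% were above 0, 14.7% lay wholly below K326 and 8.18% were lower at that unadjusted threshold, and since these 11 were grouped with their values known, the counts are a description.

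The number below 0 in Y was 10 of 11 with median-of-ratios scaling or quantile normalization, 10 without Y replicate 3 or K326 replicate 3 and 9 without Y replicate 1, with medians between -0.48 and -0.59 in these settings. In KY against K326, 9 of 11 were below 0 (median -0.24), where 11346 of all 16348 tested genes were also below 0 (median -0.14). The number of methyl-cycle genes below 0 was 7 of 11 with median-of-ratios scaling or quantile normalization, and 6 of 11 without KY replicate 3. Without KY replicate 1 it was 10 of 11 (median -0.42), without K326 replicate 3 it was 7 of 11 (-0.11), and without both 10 of 11 (-0.33). In KY against Y, 8 of 11 were above 0 (median 0.24), against 43.8% of all tested genes (median -0.05). Without KY replicate 1 this turned round, with 5 of 11 above 0 and a median of -0.12, and without Y replicate 1 the median was 0.06.

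Markers of dividing cells moved with these sums in part. The 297 dividing-cell marker genes, histones, cyclins and replication proteins by their descriptions, summed to 3420.25, 1395.05 and 1520.07 in KY, 1727.22, 2082.47 and 1508.89 in Y, and 3244.22, 2534.32 and 4676.27 in K326. KY replicate 1 was the highest KY library in both sums, and Y was wholly below K326 in both. Unlike the methyl-cycle sums, the marker sums of KY and Y overlapped, with KY replicates 2 and 3 below Y replicates 1 and 2. Of the 131 tested markers, 5 were called lower and 1 higher in Y against K326, where 51 were lower and 1 higher at an unadjusted p below 0.05 (median log2 difference -0.81). KY against K326 gave 0 calls by limma, with 37 lower and 2 higher at that threshold (median -0.56), and in KY against Y, 3 were called higher. Over all tested genes, the unadjusted shares were 8.18% lower and 4.32% higher in Y against K326, and 9.13% and 2.28% in KY against K326. In all libraries 44 of the 297 markers were listed at 0.

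Flower and pollen markers, 411 genes with 56 tested, summed to 1363.79, 669.74 and 834.35 in KY, 927.3, 888.91 and 831.59 in Y, and 1150.44, 1131.75 and 1308.3 in K326. Y was wholly below K326 here as well, and KY replicate 1 was again the highest KY library. At an unadjusted p below 0.05, 16 of the 56 were lower and 2 higher in Y against K326 (median -0.41). Of all tested genes, 8.18% were lower and 4.32% higher. The part of dividing cells or of flower and pollen markers in the methyl-cycle levels was not tested, and in whole leaf tissue fewer cells of a type and less RNA per cell cannot be told apart.

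**Figure D5:**
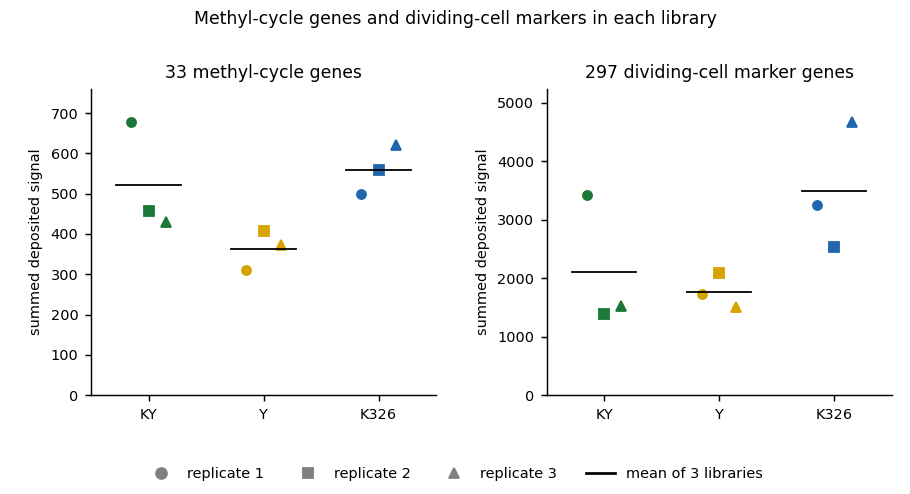
Summed deposited signal of the 33 methyl-cycle genes and of the 297 dividing-cell marker genes in each library of KY, Y and K326, with marker shapes for replicates and the mean of 3 libraries as a black line. KY replicate 1 (678.56 and 3420.25) lies above the other KY libraries in both panels, and all Y libraries lie below all K326 libraries.

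Of the 5 members lower in Y than in K326 at an unadjusted p below 0.05, 3 were S-adenosylmethionine synthetase genes. Of all tested genes, 8.18% were lower at that threshold. The count was made with the values known, and 0 of these members were called lower by limma. The enzyme's summed signal was 299.65, 245.55 and 202.37 in KY, 142.82, 184.5 and 156.08 in Y, and 233.59, 278.28 and 298.83 in K326. Y lay wholly below both other materials, at 0.60 times the K326 mean. The highest gene, Nitab4.5_0004665g0010, had 153.5, 150.2 and 104.21 in KY, 64.82, 99.48 and 57.37 in Y, and 112.46, 153.76 and 150.77 in K326. Its log2 difference was -0.93 in Y against K326 (SE 0.25, 95% interval -1.49 to -0.37, limma adjusted p = 0.137) and 0.89 in KY against Y (SE 0.25, limma adjusted p = 0.164), neither of which passed.

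Another synthetase gene, Nitab4.5_0008624g0040, had 14.27, 9.84 and 7.35 in KY, 5.29, 3.25 and 7.88 in Y, and 10.3, 11.81 and 13.28 in K326. Y lay wholly below K326 here too (log2 difference -1.04, SE 0.30, limma adjusted p = 0.172). Nitab4.5_0000578g0090 had 122.96, 79.79 and 87.1 in KY, 67.96, 75.35 and 82.74 in Y, and 104.93, 105.25 and 127.25 in K326, with Y again wholly below K326 (-0.57, limma adjusted p = 0.247). The fourth tested gene, Nitab4.5_0008312g0060, lay between 2.76 and 6.84 in KY, 3.10 and 4.97 in Y, and 4.01 and 6.11 in K326, and its libraries overlapped. The remaining 10 synthetase genes were below the tested mean or at 0.

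Methionine synthase had a summed signal of 255.86, 154.96 and 170.54 in KY, 108.05, 132.68 and 148.24 in Y, and 162.43, 167.88 and 207.27 in K326, with Y wholly below the other 2 materials. Without the gene of widest spread, Nitab4.5_0000098g0100, the sum was 181.42, 114.37 and 118.41 in KY, 94.83, 131.86 and 105.01 in Y, and 141.57, 140.71 and 155.15 in K326, and Y then overlapped KY. Its highest gene, Nitab4.5_0001606g0040, had 139.07, 92.44 and 96.51 in KY, 68.22, 92.22 and 76.03 in Y, and 107.61, 101.87 and 110.54 in K326. The Y difference from K326 was -0.44 (SE 0.19, limma adjusted p = 0.379) and that of KY from Y was 0.45 (SE 0.19, limma adjusted p = 0.351). The libraries did not overlap in either comparison, and neither passed.

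Nitab4.5_0000098g0100 had the wide spread plotted on the log10 axis, with 74.44, 40.59 and 52.13 in KY, 13.22, 0.82 and 43.23 in Y, and 20.86, 27.17 and 52.12 in K326. Its log2 differences were 0.78 in KY against K326 (limma adjusted p = 0.779), -1.61 in Y against K326 (limma adjusted p = 0.538) and 2.40 in KY against Y (limma adjusted p = 0.334). Y replicates 2 and 3 set these values: the Y difference from K326 was -0.35 without replicate 2 and -2.65 without replicate 3, and the KY difference from Y was 1.13 and 3.44 in the same order. Within Y the highest value was 52.7 times the lowest, and both this gene and serine hydroxymethyltransferase Nitab4.5_0006354g0020 had their lowest value in Y replicate 2. Nitab4.5_0000387g0090 had 14.25, 4.96 and 5.89 in KY, 7.04, 13.53 and 7.85 in Y, and 13.62, 18.04 and 13.13 in K326. Its difference of KY from K326 was -0.88 (SE 0.37, limma adjusted p = 0.413), and -1.30 without KY replicate 1, where it was called (limma adjusted p = 0.0449).

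Adenosylhomocysteinase summed to 123.05, 56.37 and 57.59 in KY, 60.72, 89.08 and 69.05 in Y, and 103.07, 112.47 and 114.76 in K326. Y lay wholly below K326, as did KY replicates 2 and 3, whereas KY replicate 1 was the highest of the 9 libraries. The highest gene, Nitab4.5_0019528g0010, had 63.58, 27.79 and 32.18 in KY, 32.23, 43.19 and 40.3 in Y, and 51.85, 56.6 and 61.59 in K326. Its difference of KY from K326 was -0.54 (SE 0.28, limma adjusted p = 0.506), and -0.90 without KY replicate 1, where it was called lower (limma adjusted p = 0.0382). Over all tested genes, 655 were called in KY against K326 without this library and 129 with it.

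A second gene, Nitab4.5_0002260g0040, followed the same order, with 55.43, 25.7 and 25.33 in KY, 21.67, 34.79 and 28.75 in Y, and 40.59, 44.29 and 47.94 in K326. Its difference of Y from K326 was -0.64 (SE 0.30, limma adjusted p = 0.423). The third, Nitab4.5_0000697g0210, had 3.88 and 2.88 in KY with a listed 0 in KY replicate 3, 6.67 and 10.95 in Y with a listed 0 in Y replicate 3, and 10.63, 11.58 and 5.23 in K326. KY lay wholly below K326 for this gene, and the difference of -1.86 did not pass (SE 0.91, limma adjusted p = 0.488).

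Neighbouring pathways were read from lists matched to the descriptions. Of 10 tested genes for folate synthesis and its glutamate tail, 1 was called higher and 1 lower in KY against K326 and in Y against K326, and 0 in KY against Y. The lower one was the dihydroneopterin aldolase gene Nitab4.5_0008674g0010, an enzyme early in folate synthesis. It was listed at 0 in every KY and Y library, against 15.3, 19.48 and 9.09 in K326. This gene passed the filter of a mean of at least 1 only through K326. Both of its calls rest on the same K326 values and are given as a description. Whether a listed 0 means no transcript was not tested. The higher one was the gamma-glutamyl hydrolase gene Nitab4.5_0000383g0060, which removes glutamates from folates, at 9.79, 14.31 and 10.08 in KY, 11.22, 12.61 and 11.91 in Y, and 4.55, 2.40 and 2.81 in K326. The KY call against K326 was absent from 5 of 20 alternatives (limma adjusted p from 0.0579 to 0.0825 over the 5). These included the fits without K326 replicate 2 or 3 and without both KY replicate 1 and K326 replicate 3. In Y against K326 the call held in all 20.

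Of 37 tested genes that supply serine, homocysteine or methionine, 2 were called higher and 0 lower in KY against Y, and 0 in both comparisons with K326. At an unadjusted p below 0.05, 0 were higher and 7 lower in Y against K326 (4.32% and 8.18% of all tested genes). By that threshold 4 were higher and 0 lower in KY against Y (4.24% and 8.96%), and 1 higher and 2 lower in KY against K326 (2.28% and 9.13%). A serine acetyltransferase gene, Nitab4.5_0002967g0050, which turns serine toward cysteine, had 19.3, 24.0 and 19.86 in KY, 9.63, 11.76 and 11.93 in Y, and 15.9, 19.54 and 18.64 in K326. It was higher in KY than in Y by 0.86 (SE 0.16, limma adjusted p = 0.0400), a call that 13 of 20 alternatives did not give, including those without any 1 Y or K326 library or without KY replicate 2 or 3 (limma adjusted p from 0.0587 to 0.178 over the 13). A homocysteine S-methyltransferase gene, Nitab4.5_0000085g0320, which also makes methionine from homocysteine, had 2.20, 4.62 and 4.31 in KY, 1.02, 0.51 and 1.22 in Y, and 2.73, 2.45 and 2.59 in K326. It was higher in KY than in Y by 1.27 (SE 0.25, limma adjusted p = 0.0494), a call that 17 of the 19 alternatives testing it did not give, including those without any 1 library other than KY replicate 1 (limma adjusted p from 0.0507 to 0.199 over the 17).

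The photorespiration, S-adenosylmethionine user and formate-tetrahydrofolate ligase lists held 0 called genes in all 3 comparisons by limma. At an unadjusted p below 0.05, the 9 tested photorespiration genes had 0 higher and 0 lower in each comparison. The 48 tested users of S-adenosylmethionine, such as O-methyltransferases and SET-domain proteins, had 2 higher and 5 lower in KY against K326 (2.28% and 9.13% of all tested genes). They had 1 and 3 in Y against K326 (4.32% and 8.18%), and 0 and 4 in KY against Y (4.24% and 8.96%). Formate-tetrahydrofolate ligase, which loads formate onto tetrahydrofolate, had 2 genes whose summed signal was 37.58, 35.27 and 33.73 in KY, 30.87, 34.58 and 40.85 in Y, and 40.17, 32.04 and 35.06 in K326. All 3 materials overlapped, and at an unadjusted p below 0.05 neither gene differed in any comparison.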

How the data were processed

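Transcripts were measured by paired-end Illumina sequencing of TruSeq libraries from TRIzol-extracted leaf RNA, per the labels' protocols. Per the submitters' processing notes the tools were HISAT2, StringTie and RSEM, with no role or version stated; build and settings were not given in the sources used here. What the authors deposited is a gene-by-library signal in 1 table, with at most 2 decimals and no named unit. It is not a count, and depth is unknown, so no counting interval is given. The authors' 3 mean columns equalled the means of the libraries within 3.33e-06 and were not used. No column was left without a sample.

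Groups follow the genotype label. Values were transformed as log2(signal + 1), and the 16348 genes whose mean over the 9 libraries reached 1 were fitted in 1 model, a mean per material, by limma 3.58.1 (R 4.3.3; trended empirical Bayes), testing all genes with Benjamini-Hochberg adjustment per comparison. The threshold for a call was an adjusted p of 0.05. The pseudocount understates changes of low genes. The fit was checked on simulated data. The members and lists were chosen with earlier results of these data known, and 1 list, formate-tetrahydrofolate ligase, and 3 list patterns were set after the descriptions and values were seen. Genes were named by a rule: called members, the 3 highest and 3 lowest log2 differences per comparison, the member with the highest mean per enzyme, and up to 2 called genes per neighbouring list. This gave 18 members. The members Nitab4.5_0003100g0060, Nitab4.5_0007591g0010, Nitab4.5_0006089g0040, Nitab4.5_0006595g0030, Nitab4.5_0008624g0040, Nitab4.5_0000578g0090, Nitab4.5_0008312g0060, Nitab4.5_0000036g0440 and Nitab4.5_0002260g0040 were added after their values were seen. None of the deposited identifiers matched the reference table at hand (79372 genes, ASM71507v2), so genes carry neither symbols nor coordinates nor sequences.

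The 20 alternatives were pseudocounts of 0.1 and 5, no filter and a mean of at least 5, 3 other scalings, fits to 2 materials, robust empirical Bayes, the replicate number as a block, each library left out, and both KY replicate 1 and K326 replicate 3 left out. The results of 1 neighbouring list are not reported here.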

Additional observations from a re-analysis of the deposited data

How the results depend on the processing

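The members called stayed at 1 in Y against K326 in 13 of 20 alternatives, and it was the reductase gene in each. The number was 0 with the replicate block, without both KY replicate 1 and K326 replicate 3, and 0 to 1 when 1 library was left out. Members called lower were 1 in KY against Y with median-of-ratios scaling and with quantile normalization, and 0 to 2 in KY against K326 when 1 library was left out. The genes called over the whole table were 129 in KY against K326, 325 in Y against K326 and 212 in KY against Y. With a mean of at least 5 they were 60, 156 and 127, and 127 in KY against Y when only these 2 materials were fitted. Leaving out 1 library gave 76 to 655, 181 to 450 and 114 to 302. In KY against K326, 38 genes were higher and 91 lower, against 49 and 73 with median-of-ratios scaling and 51 and 73 with quantile normalization. The members' median log2 difference became 0.12 in KY against K326 with median-of-ratios scaling and -0.042 in Y against K326 without a filter on low values, where genes near 0 enter. It ranged from -0.10 to 0.06, from -0.18 to -0.08 and from -0.0008 to 0.13 in the 3 comparisons when 1 library was left out.

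Same-numbered libraries deviated together with correlations from -0.17 to 0.18, so the replicate numbers are not taken to pair the libraries. With the replicate block 85, 211 and 134 genes were called, and the reductase call was lost (limma adjusted p = 0.0844).

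Of 1013 values of named genes, 938 kept their direction and side of the threshold, 42 lost a call, 4 gained one and 29 changed sign. The sign changes were in genes that were not called. In KY against K326, Nitab4.5_0004665g0010 was at 0.14 and 0.016 with median-of-ratios scaling and quantile normalization, Nitab4.5_0004658g0050 at 0.068 with the first and Nitab4.5_0002695g0040 at -0.024 with the second. Nitab4.5_0001606g0040 was at -0.019 with the same total per library and at -0.15 without both KY replicate 1 and K326 replicate 3. In that last setting Nitab4.5_0003627g0010 was at -0.002 (0.0185 to 0.38 when 1 library was left out). In Y against K326, Nitab4.5_0003627g0010 was at 0.044 and Nitab4.5_0000524g0090 at 0.0093 with quantile normalization, and Nitab4.5_0000524g0090 at 0.011 without both libraries. In KY against Y, Nitab4.5_0002695g0040 was at 0.055 with median-of-ratios scaling and at 0.0014 without both libraries, and Nitab4.5_0019528g0010 at -0.0051 with the same total and at -0.35 without both. When 1 library was left out, signs changed in KY against K326 for Nitab4.5_0001606g0040 (-0.17 to 0.12), Nitab4.5_0000524g0090 (-0.18 to 0.19) and Nitab4.5_0004665g0010 (-0.18 to 0.14). They changed in Y against K326 for Nitab4.5_0003627g0010 (-0.41 to 0.10), Nitab4.5_0006354g0020 (-3.28 to 0.64) and Nitab4.5_0000524g0090 (-0.34 to 0.023), and in KY against Y for Nitab4.5_0019528g0010 (-0.35 to 0.24) and Nitab4.5_0002695g0040 (-0.064 to 0.0074). The causes were not tested.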
